A study of Mus musculus with 3 samples.

Results

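Transcripts of 8 acetylcholine receptor genes were measured in single nuclei of mouse brain neurons that project to the lumbar spinal cord. The genes were chosen as a list: the muscarinic receptors Chrm1, Chrm2, Chrm3 and Chrm4 and the nicotinic subunits Chrna3, Chrna4, Chrna7 and Chrnb2, 8 of the 32285 genes counted. The nuclei came from uninjured C57BL/6 mice, a single group with no treated counterpart and with no allele or age named in the labels, and neurons were labelled retrogradely from the lumbar cord, dissected under fluorescence and sorted as nuclei. Droplet-based sequencing gave 3 libraries, labelled as biological replicates 1, 2 and 3. How many animals stand behind a library is not given in the sources used here, so the p-values measure only the spread between these libraries, which may be technical.

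Acetylcholine acts on 2 kinds of receptor. Muscarinic receptors couple to G proteins: M1 and M3, encoded by Chrm1 and Chrm3, act through Gq, phospholipase C and calcium release, whereas M2 and M4, encoded by Chrm2 and Chrm4, act through Gi/o proteins that inhibit adenylyl cyclase and open GIRK potassium channels. Nicotinic receptors are ion channels of 5 subunits, either alike (alpha7, from Chrna7) or mixed (alpha4 with beta2, from Chrna4 and Chrnb2, the common pair of the brain, and alpha3, from Chrna3, typical of autonomic ganglia). Cholinergic input reaches cortical layer 5 from the basal forebrain and brainstem motor centres from the mesopontine tegmentum.

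On the mm10 build the 8 genes differ widely in size. Chrm3 lies on chromosome 13 from 9875486 to 10360847 on the minus strand, a span of 485 kb of which 1.29% is exonic. Chrm2 lies on chromosome 6 from 36388084 to 36528414 on the plus strand and spans 140 kb, 4.31% of it exonic, and its 5′ end overlaps the non-coding gene 9330158H04Rik on the other strand by 2108 bases. Chrna7 covers 114 kb on chromosome 7 from 63098692 to 63212569 on the minus strand. The other members are short. Chrm1 runs from 8663789 to 8683587 on chromosome 19 and Chrna3 from 55010111 to 55026562 on chromosome 9. Chrna4 runs from 181018380 to 181043546 on chromosome 2, and Chrnb2 from 89746195 to 89764632 on chromosome 3, where it overlaps the RNA-editing gene Adar on the other strand by 7252 bases. Chrm4 occupies 91927249 to 91928688 on chromosome 2, and its GENCODE model is 1 exon of 1440 bases, of which 3 are untranslated. Whether introns and strand were used in counting is not given in the sources used here, so counts of overlapping genes on opposite strands may not be separable, and levels are compared between nuclei for 1 gene and never between genes.

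Chrm2 was lowest and Chrm3 highest in the cortical nuclei described below, and the sequences just upstream of their RefSeq starts (GRCm38.p6) are given for these 2 genes. The Chrm2 window is chr6:36387834-36388083, 250 bases on the plus strand, and the Chrm3 window is chr13:10360848-10361053, 206 bases on the minus strand after 44 bases that GENCODE places in the gene were left out. Capitals mark CTGTCA, the other-strand reading of the Meis core TGACAG.

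Chrm2: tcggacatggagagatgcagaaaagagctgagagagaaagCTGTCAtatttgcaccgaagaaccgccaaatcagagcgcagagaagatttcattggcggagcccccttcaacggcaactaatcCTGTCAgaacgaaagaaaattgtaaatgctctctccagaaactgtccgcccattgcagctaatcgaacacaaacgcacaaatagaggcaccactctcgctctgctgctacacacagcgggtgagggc

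Chrm3: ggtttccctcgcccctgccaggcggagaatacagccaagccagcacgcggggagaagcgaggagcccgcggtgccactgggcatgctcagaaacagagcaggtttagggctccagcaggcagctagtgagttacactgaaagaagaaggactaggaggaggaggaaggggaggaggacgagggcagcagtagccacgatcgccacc

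The Meis core was searched because Meis1 and Meis2 define the hindbrain gate used here, and the nuclear factor I motif TTGGCA because Nfib is a layer 5 marker, both on both strands of the 250 bases before each RefSeq start. Chrm2 held the Meis core 2 times, beginning 210 and 127 bases before the start, and Chrna7 held it 1 time. It was found in 15.9% of 32851 promoter windows, and the nuclear factor I motif in 12.3% of them but in none of the 7 members listed in the RefSeq table (all but Chrm1). A match of letters is a description of the window only.

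Nuclei were kept from 1000 detected genes upward if mitochondrial UMIs (unique molecular identifiers) made up no more than 5%, and they numbered 2679, 2769 and 3579 in libraries 1, 2 and 3, 9027 in all. They were typed in a fixed order by CPM, a gene's UMIs scaled to the total of the nucleus, each gate needing at least 2 UMIs: cortical at 300 CPM of Tox, red nucleus at 150 CPM of Ttc6, Chst9 and Rreb1 together, hypothalamic at 150 CPM of Sim1 or of Ros1 and Rfx2 together, and hindbrain at 200 CPM of Meis1 and Meis2 together. This gave 4126 cortical, 332 red nucleus, 149 hypothalamic and 2782 hindbrain nuclei, and 1638 nuclei passed no gate. Of the kept nuclei, 1777 passed 2 or more gates, 1677 of them the cortical and hindbrain gates, and these were assigned by the order above. Median depth was 12640, 26866 and 19455 UMIs in cortical nuclei of libraries 1, 2 and 3 and 7561, 15392 and 10950 in hindbrain nuclei. Pairs of libraries shared 1 to 3 cell barcodes among the kept nuclei.

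The gates were checked against marker lists, some of which hold gate genes. The summed corticospinal markers (Fezf2, Crym, Bcl11b, Slc17a7) reached 327 to 451 CPM in cortical nuclei and at most 114 CPM in the other types. Sim1, Otp, Oxt, Avp, Hcrt and Nnat summed to between 2357 and 2664 CPM in hypothalamic nuclei and to at most 198 CPM elsewhere. The red nucleus list summed higher in hypothalamic nuclei (932 to 1209 CPM) than in red nucleus nuclei (285 to 407 CPM), and its member Foxp2 averaged 940 CPM in the former, while Pou4f1, a transcription factor of the red nucleus, averaged 17.6 ± 8.82 CPM (SD, n = 3) in red nucleus nuclei and at most 1.26 CPM in any other type. The hindbrain list summed to 134 to 164 CPM in hindbrain nuclei and to 8.94 to 10.4 CPM in cortical nuclei. It reached 106 to 133 CPM in red nucleus and 105 to 112 CPM in hypothalamic nuclei, so it set these types little apart from hindbrain nuclei. Hoxb3 averaged 9.52 CPM in hindbrain nuclei and 0.391 CPM in cortical nuclei. The hindbrain gate was mixed. It held 100, 84 and 68 nuclei of libraries 1, 2 and 3 with at least 300 CPM of Nfib, and in these the corticospinal markers summed to 255 to 404 CPM, against 25.0 to 69.2 CPM in the other hindbrain nuclei. The cortical gate held 81, 81 and 93 nuclei below that Nfib level. Many of the results below, but not all, are given with and without these nuclei or by Nfib level.

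Markers of other cells also differed between types. Microglial markers (Csf1r, Cx3cr1, P2ry12) summed to 20.5 to 37.1 CPM in cortical nuclei and to 51.8 to 93.8 CPM in the other types. Oligodendrocyte markers (Mbp, Mog, Mag) summed to 50.6 to 63.4 CPM in cortical nuclei and to 10.8 to 39.7 CPM in the others, and 3 of 3 markers of each list had UMIs in every type. The part of these cells in the differences below was not tested. Hcrt, the transcript of orexin neurons, was counted in every type. It averaged 2153 CPM in hypothalamic nuclei that entered by Ros1 and Rfx2 alone, 56.1 CPM in cortical nuclei (27.0 to 85.9 by library) and 71.6 CPM in hindbrain nuclei (34.5 to 118.5). Within the cortical gate it averaged 47.8 CPM in Nfib-high and 320 CPM in Nfib-low nuclei, and it stood at 151 CPM in nuclei that passed no gate. In barcodes outside the gene and mitochondrial limits Hcrt was at 287, 1035 and 402 CPM in libraries 1, 2 and 3. Free RNA was not measured apart from these values, and its part in the low levels below was not tested.

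Differences between types were tested on UMI sums per type and library (12 sums of 367083 to 45768766 UMIs) with edgeR's quasi-likelihood test, the library as a block and Benjamini-Hochberg adjustment over 16315 genes. A gene passed at an adjusted p under 0.05 and at least a 2-fold difference, and levels of types are given as CPM scaled by TMM factors (TMM CPM). The scaling matters here: without the factors the median log2 difference of all genes moved by -0.42, -0.64 and -0.47 for cortical against red nucleus, hypothalamic and hindbrain nuclei. With them, 9.56% of genes passed as higher and 12.1% as lower in cortical than in red nucleus nuclei, 12.3% and 10.3% against hypothalamic nuclei, and 9.51% and 12.1% against hindbrain nuclei. Without them the higher share of the calls fell from 44.1% to 20.2%, from 54.3% to 17.9% and from 44.1% to 17.9% in the same order. It also fell from 55.7% to 35.2% for red nucleus against hypothalamic nuclei, and rose from 46.1% to 62.5% for hypothalamic against hindbrain nuclei (56.8% with DESeq2's size factors), with median shifts of -0.22 and 0.17. Read against these shares, 2 of the 7 members tested were higher and 1 was lower in cortical than in red nucleus nuclei, 3 were higher and 1 lower against hypothalamic nuclei, and 3 were higher and 1 lower against hindbrain nuclei. Among the other types, 3.78% of genes passed as higher in red nucleus than in hypothalamic nuclei, where 1 member was higher. Red nucleus against hindbrain nuclei gave 2.13% and 1.96% and no member. Hypothalamic against hindbrain nuclei gave 1.99% and 2.32% and 1 member, which was lower. In bulk sums, fewer nuclei with a transcript and less transcript per nucleus cannot be told apart.

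**Figure D1:**
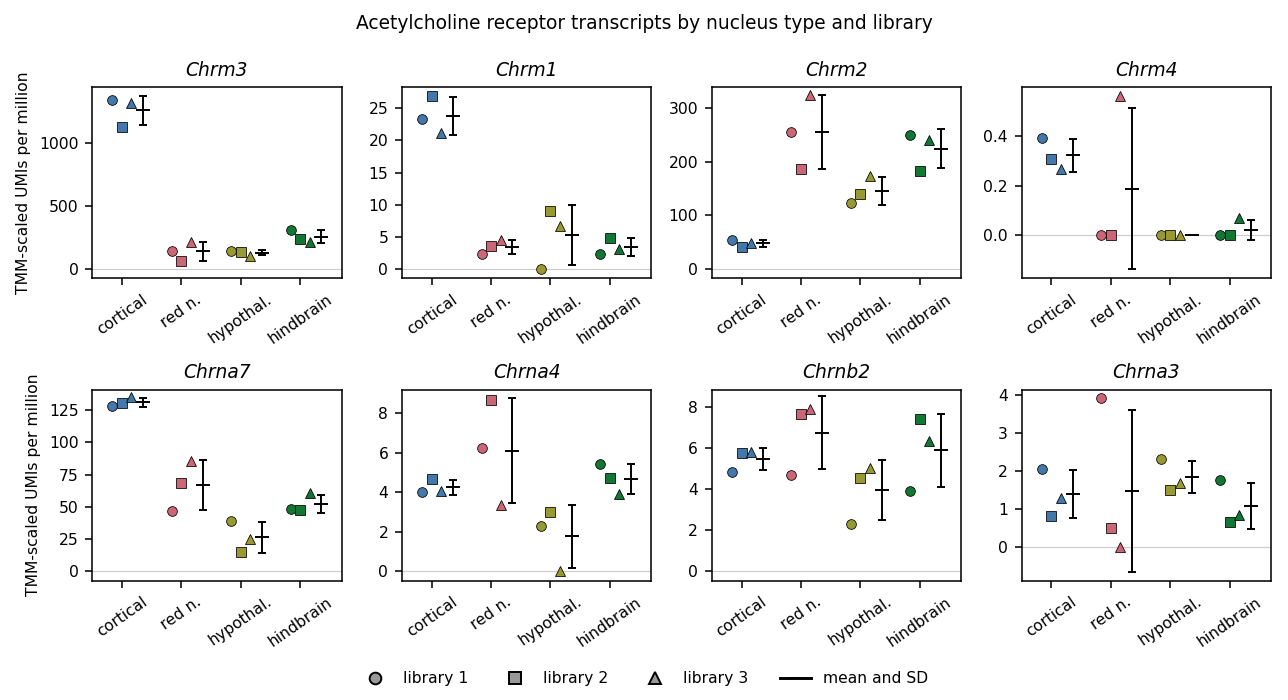
Each panel plots 1 gene, with TMM CPM on a linear vertical axis that differs between panels, the 4 nucleus types along the horizontal axis, 1 symbol per library, and the mean with its SD in black (n = 3 libraries). Chrm3 and Chrna7 are highest in cortical nuclei in all 3 libraries, and Chrm2 is lowest there.

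Among the Gq-coupled receptors, Chrm3 was highest in cortical nuclei. Its level in cortical nuclei was 1335, 1124 and 1312 TMM CPM in libraries 1, 2 and 3, a mean of 1257 ± 116 (SD, n = 3). Hindbrain nuclei held 311, 241 and 215 TMM CPM, red nucleus nuclei 146, 61.2 and 215, and hypothalamic nuclei 145, 136 and 106. Every cortical value thus lay above every value of the other types, whereas the red nucleus values spread from below the hypothalamic ones up to the lowest hindbrain one. By edgeR, Chrm3 was higher in cortical nuclei by 2.30 ± 0.19 (log2, SE) against hindbrain (adjusted p = 1.6e-08), by 3.20 ± 0.22 against red nucleus (adjusted p = 1.9e-09) and by 3.28 ± 0.26 against hypothalamic nuclei (adjusted p = 1.6e-08). These differences are 4.91-, 9.17- and 9.70-fold. Red nucleus and hypothalamic nuclei did not differ beyond their spread (log2 difference 0.08, adjusted p = 0.915). Both were below hindbrain nuclei by less than 2-fold (-0.90, adjusted p = 0.013, and -0.98, adjusted p = 0.034 by edgeR), so neither passed. These 2 differences depended on the nuclei and libraries used: red nucleus against hindbrain nuclei passed without library 3 (-1.55), hypothalamic against hindbrain nuclei passed without library 2 (-1.13), and with the nuclei at odds with their type on Nfib left out they were -0.57 (adjusted p = 0.0888, edgeR) and -0.56 (adjusted p = 0.228).

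Chrm3 was uneven within the hindbrain gate. The 252 Nfib-high nuclei held 935, 700 and 871 plain CPM of Chrm3 (without TMM factors) in libraries 1, 2 and 3, beside 1034, 889 and 1019 plain CPM in the Nfib-high cortical nuclei. The remaining hindbrain nuclei held 216, 198 and 183 plain CPM. That level was 20.4% of the cortical one on average (18.0% to 22.3% by library), against 6.73% for Bcl11b, 9.32% for Crym, 13.5% for Fezf2 and 18.2% for Slc17a7, which are markers of corticospinal or cortical excitatory neurons. Over the 3 libraries the shares of Bcl11b and Crym all lay below those of Chrm3, and the shares of Fezf2 and Slc17a7 overlapped them.

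Chrm1, the M1 receptor of forebrain pyramidal neurons, was also highest in cortical nuclei, at few UMIs. Cortical nuclei held 23.4, 26.9 and 21.1 TMM CPM (1836 UMIs in all). The highest value outside them was 9.03 TMM CPM, in hypothalamic nuclei of library 2. Hindbrain nuclei averaged 3.41 ± 1.35, red nucleus nuclei 3.47 ± 1.08 and hypothalamic nuclei 5.25 ± 4.69 (SD, n = 3), the last from 10 UMIs. Chrm1 was higher in cortical nuclei by 2.77 ± 0.19 against hindbrain (adjusted p = 1.1e-09), 2.76 ± 0.31 against red nucleus (adjusted p = 1.1e-06) and 2.05 ± 0.42 against hypothalamic nuclei (adjusted p = 7.3e-04; log2 ± SE, edgeR). The other 3 types did not differ from each other beyond their spread, with adjusted p of 0.514 to 0.993.

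**Figure D2:**
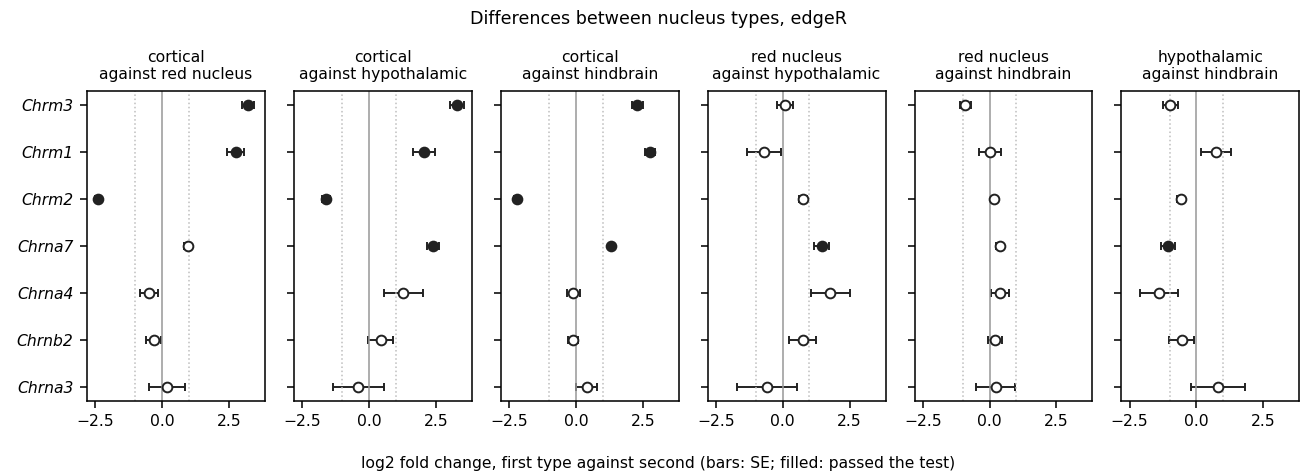
Log2 fold changes from edgeR (horizontal axis, bars are SE) of the 7 members that could be tested (rows), for the 6 pairs of nucleus types (panels), with filled points for differences that passed at an adjusted p under 0.05 and at least 2-fold (dotted lines). Chrm3 and Chrm1 lie to the right and Chrm2 to the left in all 3 cortical panels.

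Of the Gi/o-coupled receptors only Chrm2 could be tested. Chrm2, the M2 receptor, was lowest in cortical nuclei at 54.9, 41.8 and 48.2 TMM CPM. Red nucleus nuclei held 255, 186 and 325, hindbrain nuclei 250, 182 and 240, and hypothalamic nuclei 122, 140 and 173 TMM CPM. No value of the 3 subcortical types reached down to a cortical one. Chrm2 was lower in cortical nuclei by -2.39 ± 0.11 against red nucleus (adjusted p = 9.2e-12), -2.21 ± 0.10 against hindbrain (adjusted p = 5.0e-12) and -1.62 ± 0.15 against hypothalamic nuclei (adjusted p = 1.5e-07; log2 ± SE, edgeR), which are 5.25-, 4.63- and 3.07-fold. Red nucleus and hindbrain nuclei did not differ beyond their spread (log2 0.18 ± 0.11, adjusted p = 0.333), and the sign turned without library 3 (-0.03) and with all gates doubled (-0.44, adjusted p = 0.0137 by edgeR). Hypothalamic nuclei were lower than both by less than 2-fold (adjusted p = 0.0014 against red nucleus and 0.011 against hindbrain nuclei, edgeR).

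Within the gates Chrm2 was uneven. The Nfib-high cortical nuclei held 32.2, 30.1 and 31.8 plain CPM in libraries 1, 2 and 3, and the 255 Nfib-low nuclei of the same gate held 241, 160 and 218. In the hindbrain gate the Nfib-low nuclei held 281, 222 and 269 plain CPM and the Nfib-high nuclei 80.1, 61.1 and 81.4. The cortical level was thus 12.3% of the hindbrain level when only Nfib-high cortical and Nfib-low hindbrain nuclei were set side by side (11.5% to 13.6% by library). Hox genes, Lhx4 and the excitatory marker Slc17a6 stood between 0.447% and 4.92% on average in the same comparison.

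The hypothalamic gate joined 2 unlike sets. The 93 nuclei that passed on Sim1, a factor of the paraventricular nucleus, held 226, 284 and 262 plain CPM of Chrm2 in libraries 1, 2 and 3. The 56 nuclei that passed on Ros1 and Rfx2 alone, among which Hcrt was at 2153 CPM, held 32.3, 44.6 and 89.3 plain CPM, from 30 UMIs in all. The ranges did not overlap, and the difference was not tested. Chrm3 was at 127, 84.1 and 145 plain CPM in the Sim1 set and at 233, 245 and 89.3 in the other, with overlapping ranges.

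**Figure D3:**
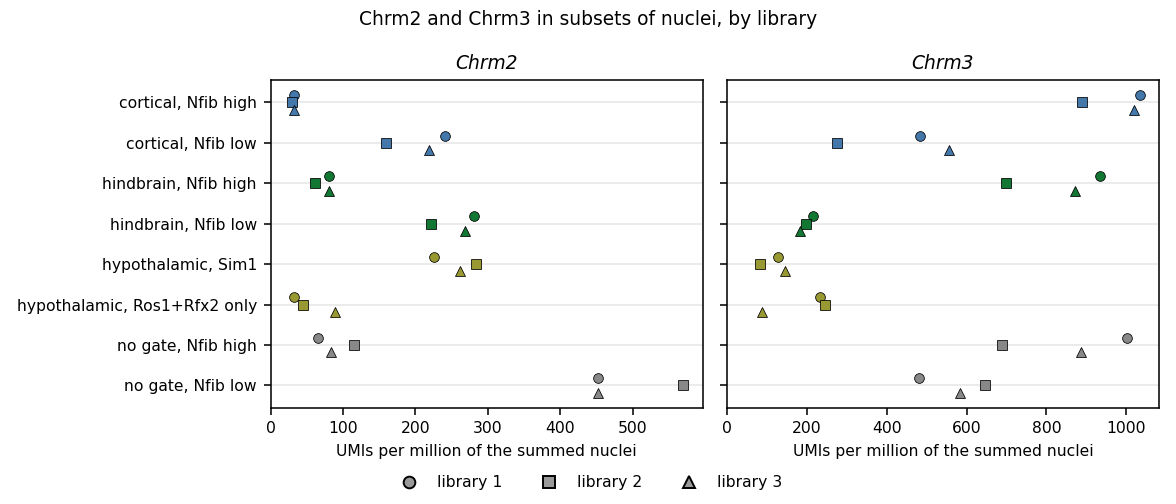
Plain CPM of Chrm2 (left) and Chrm3 (right) on linear horizontal axes, for subsets of nuclei (rows; Nfib high means at least 300 CPM), with 1 symbol per library. Nfib-low nuclei lie to the right for Chrm2 and to the left for Chrm3 within the cortical, hindbrain and ungated nuclei.

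Chrm4, the M4 receptor, was close to absent from the counts. It had 23 UMIs in all cortical nuclei (0.322 ± 0.065 TMM CPM, SD, n = 3), 1 in hindbrain nuclei, 1 in red nucleus nuclei and 0 in hypothalamic nuclei, and it failed the filter on low counts. The 0 in 53, 44 and 52 hypothalamic nuclei allows a share of nuclei with a UMI of up to 5.66%, 6.82% and 5.77% when the limit is set at 3 nuclei, and exact 95% intervals reach 6.72%, 8.04% and 6.85%, both for counting error only.

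Chrna7 was the only nicotinic gene among the 8 members with a difference between types that passed. Cortical nuclei held 128, 130 and 135 TMM CPM. This spread was smaller than in the other types, but it rested on 10006 UMIs, against 1983 in hindbrain and 346 in red nucleus nuclei. The part of counting error in these spreads was not tested. Red nucleus nuclei held 46.9, 68.4 and 85.4, hindbrain nuclei 48.4, 47.9 and 60.4, and hypothalamic nuclei 39.2, 15.1 and 25.2 TMM CPM, the last from 42 UMIs. The order cortical, red nucleus, hindbrain, hypothalamic had 1 pair of neighbours whose ranges overlapped, red nucleus and hindbrain (log2 0.38, adjusted p = 0.0968). By edgeR Chrna7 was higher in cortical nuclei by 1.33 ± 0.11 against hindbrain (adjusted p = 7.4e-09) and 2.40 ± 0.23 against hypothalamic nuclei (adjusted p = 1.5e-07), and by 0.95 ± 0.13, just under 2-fold, against red nucleus nuclei (adjusted p = 1.1e-05; log2 ± SE). The last difference passed without library 2 (1.05) or library 3 (1.18). It was also higher in red nucleus than in hypothalamic nuclei, by 1.45 ± 0.27 (adjusted p = 0.0011). Hypothalamic nuclei were below hindbrain nuclei by -1.07 ± 0.26 (adjusted p = 0.0125), a call that 6 of 12 alternatives lost, among them leaving out library 2 (adjusted p = 0.0924) or library 3 (adjusted p = 0.0784). The same call was lost with DESeq2's size factors, without TMM factors and with the nuclei at odds with their type on Nfib left out. Without TMM factors the cortical excess over hindbrain nuclei was 0.87, below 2-fold. Chrna7 averaged 102 plain CPM in Nfib-high and 45.2 in Nfib-low cortical nuclei, and 77.0 and 52.6 in Nfib-high and Nfib-low hindbrain nuclei.

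The subunits of the heteromeric receptors were low and did not separate the types. Chrna4 averaged 4.25 ± 0.37 TMM CPM in cortical, 4.68 ± 0.77 in hindbrain and 6.1 ± 2.66 in red nucleus nuclei (SD, n = 3), and had 3 UMIs in hypothalamic nuclei. Chrnb2, which encodes its usual partner beta2, averaged 5.45 ± 0.55 in cortical, 5.88 ± 1.78 in hindbrain, 6.74 ± 1.77 in red nucleus and 3.96 ± 1.45 TMM CPM in hypothalamic nuclei. Ranges of all types overlapped for Chrnb2. For Chrna4 the hypothalamic values (0 to 3.01) lay below those of the other types, the lowest of which was 3.37, and the ranges of the other types overlapped. No difference passed: adjusted p was 0.137 to 0.737 for Chrna4 and 0.364 to 0.743 for Chrnb2 over the 6 pairs of types by edgeR. Chrna3, the ganglionic subunit, had 89 UMIs in cortical, 36 in hindbrain, 6 in red nucleus and 3 in hypothalamic nuclei, and its adjusted p was 0.405 to 0.899. The SE of its log2 differences was 0.40 for cortical against hindbrain nuclei and 0.68 to 1.11 for the other 5 pairs.

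Shares of nuclei with a UMI were highest in cortical nuclei for Chrm3 and Chrna7 and lowest there for Chrm2, before and after depth was made equal. After each nucleus was thinned to 3000 UMIs, which left out 0% to 5.48% of nuclei per type and library, Chrm3 was seen in 88.5% of cortical, 32.0% of hindbrain, 24.8% of hypothalamic and 19.8% of red nucleus nuclei (means of 3 libraries). Unthinned, these shares were 96.4%, 52.0%, 44.6% and 47.1%. Chrm2 was seen in 39.1% of hindbrain, 31.5% of red nucleus, 26.8% of hypothalamic and 9.02% of cortical nuclei after thinning, and in 64.3%, 64.5%, 41.0% and 28.2% before. Chrna7 stood at 23.2% in cortical, 14.7% in red nucleus, 13.3% in hindbrain and 8.81% in hypothalamic nuclei after thinning, and at 70.1%, 46.1%, 37.7% and 20.3% before. The order of the other 3 types by thinned share was that of the mean TMM CPM for Chrna7. It differed for Chrm2 in hindbrain and red nucleus nuclei and for Chrm3 in hypothalamic and red nucleus nuclei, and no order is read from those pairs.

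The wider cholinergic pathway was read from a list of 52 genes, of which 34 were tested. In cortical nuclei 12 were higher and 4 lower than in red nucleus nuclei, 14 higher and 7 lower than in hypothalamic nuclei, and 10 higher and 5 lower than in hindbrain nuclei. Of all genes 9.56%, 12.3% and 9.51% passed as higher and 12.1%, 10.3% and 12.1% as lower in the same order. The Gq route (G proteins, phospholipase C, IP3 receptor, protein kinase C and the M-current channels) had 6, 7 and 4 of 11 tested genes higher and none lower in the same order. The median log2 difference of these 11 genes was 1.23, 1.40 and 0.91, against 0.03, 0.12 and 0.01 over all genes. Plcb1, the phospholipase C that Gq activates, averaged 3046 ± 253 TMM CPM in cortical, 617 in hindbrain, 412 in red nucleus and 226 in hypothalamic nuclei. Itpr1, the IP3 receptor that releases calcium, averaged 628 ± 49.7 TMM CPM in cortical and 97.4, 71.4 and 62.2 in hindbrain, red nucleus and hypothalamic nuclei. Prkcb, a protein kinase C isoform, was higher in cortical than in each other type by 2.11 to 2.70 on the log2 scale. Without TMM factors 5, 5 and 3 genes of the Gq route were higher and 1, 1 and 0 lower. Of all 34 pathway genes tested, 9, 9 and 7 were then higher and 6, 8 and 6 lower in cortical nuclei.

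Genes of the Gi/o route had a different order from Chrm2. In cortical nuclei, where Chrm2 was lowest, 4, 6 and 5 of 12 tested genes were higher than in red nucleus, hypothalamic and hindbrain nuclei. In the same order 0, 2 and 0 were lower. Of all genes 9.56%, 12.3% and 9.51% passed as higher and 12.1%, 10.3% and 12.1% as lower. Median log2 differences of the 12 genes were 0.85, 1.08 and 0.78, against 0.03, 0.12 and 0.01 over all genes. Without TMM factors 3, 4 and 4 were higher and 1, 2 and 1 lower. Kcnj3, a GIRK channel subunit opened by Gi/o receptors, averaged 622 ± 74.5 TMM CPM in cortical, 361 in red nucleus, 281 in hindbrain and 131 in hypothalamic nuclei. Kcnj6, another GIRK subunit, averaged 383 in cortical and 89.0 to 148 TMM CPM in the other types. Adcy1, an adenylyl cyclase, averaged 272 in cortical and 48.5 to 72.8 TMM CPM elsewhere, and Rgs4, which shortens G protein signals, 28.2 against 5.91 to 8.92. Gnai2 and Rgs8, named after their values were seen, were the 2 lower genes against hypothalamic nuclei (-1.91 and -1.17, log2).

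Regulators of receptor assembly differed in both directions, and the calls of higher genes depended on the scaling. Among 8 tested assembly and modulator genes, 2, 1 and 1 were higher and 2, 3 and 3 lower in cortical nuclei than in red nucleus, hypothalamic and hindbrain nuclei. The shares of all genes were 9.56%, 12.3% and 9.51% higher and 12.1%, 10.3% and 12.1% lower, and 8 genes are few to set beside them. Without TMM factors 1, 0 and 0 of the 8 were higher and 2, 3 and 3 lower. Lypd6, a Ly6 family modulator of nicotinic receptors, averaged 2.66 ± 1.17 TMM CPM in cortical, 6.07 in red nucleus, 29.0 in hindbrain and 61.1 in hypothalamic nuclei, and Lypd6b 5.25 ± 2.13 in cortical and 18.8 to 38.9 in the others. Ly6h, which limits alpha7 receptors, averaged 46.8 in cortical, 48.3 in red nucleus, 98.9 in hindbrain and 186 TMM CPM in hypothalamic nuclei. Lypd1 was higher in cortical than in red nucleus nuclei (1.53 ± 0.23 log2, adjusted p = 2.9e-05, edgeR). Ache, acetylcholinesterase, averaged 12.6 ± 2.58 TMM CPM in cortical and 36.8 to 45.1 in the other types, lower in cortical nuclei by -1.56 to -1.84 on the log2 scale. Chrnb1, the muscle-type beta subunit and the only 1 of 13 other receptor genes that could be tested, was lower in cortical nuclei by -1.67 to -2.53 (named after its values were seen). Chat, Slc18a3 and Slc5a7, which mark neurons that release acetylcholine, had 9, 1 and 5 UMIs in cortical and 13, 3 and 29 in hindbrain nuclei.

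Among the other types, red nucleus nuclei had 2 of the 34 pathway genes tested higher and 5 lower than hypothalamic nuclei, where 3.78% and 3.0% (490) of all 16315 genes passed. Against hindbrain nuclei 0 were higher and 4 lower in red nucleus nuclei, beside 2.13% and 1.96% of all genes. Hypothalamic nuclei had 3 genes higher and 4 lower than hindbrain nuclei, beside 1.99% and 2.32% of all genes, and 4 higher and 2 lower without TMM factors or with DESeq2's size factors. The 4 genes lower in red nucleus than in hindbrain nuclei were Lypd6, Lypd6b, Ly6h and the M-current channel Kcnq5.

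Counts of Chrm2 varied widely from nucleus to nucleus inside the hindbrain gate, on few UMIs per nucleus. The 913, 763 and 1106 hindbrain nuclei of libraries 1, 2 and 3 held 1976, 2786 and 3453 Chrm2 UMIs. The part of counting error in the spread was not tested. It had at least 1 UMI in 58.5% (exact 95% interval 55.2% to 61.7%), 68.9% (65.5% to 72.2%) and 65.5% (62.6% to 68.3%) of hindbrain nuclei of libraries 1, 2 and 3, at different depths. The median was 136, 124 and 152 CPM, the upper quartile 347, 299 and 357, and the 90th percentile 669, 463 and 602. The 25% of nuclei highest in Chrm2 held 72.0%, 67.4% and 68.9% of its UMIs. In the plot of Chrm2 per nucleus, the top class held 1.97% to 7.01% and the class below it 12.8% to 17.2% of a library's hindbrain nuclei, and every class held hindbrain nuclei of every library.

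**Figure D4:**
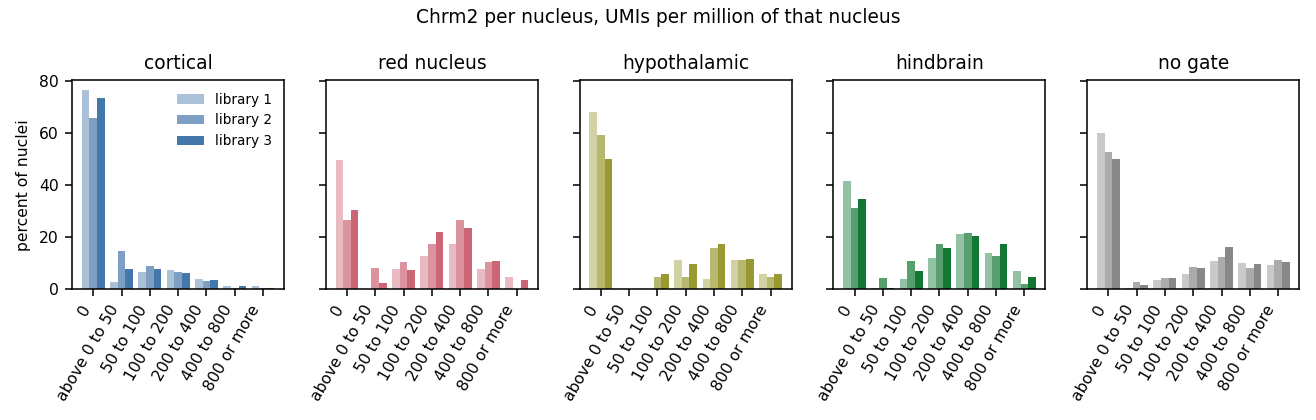
Percent of nuclei (vertical axis) by Chrm2 level in classes of CPM of the nucleus (horizontal axis), for the 4 types and for nuclei that passed no gate, with 1 bar per library. Cortical nuclei fall in the class at 0 in 65.7% to 76.4%, and hindbrain nuclei in 31.1% to 41.5%.

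To see what varies with Chrm2, the 25% of hindbrain nuclei highest in Chrm2 in each library (229, 191 and 277 nuclei) was compared with those at or below the median (457, 382 and 553), with Chrm2 itself left out of the test. The level of Chrm2 that made this split was 636 against 30.9 TMM CPM. Each nucleus was assigned on few UMIs, so some may stand in the wrong group through counting error, which was not tested. Of 14321 genes, 0.454% passed as higher and 2.91% as lower (65 and 417 genes). Median depths were 7828, 16167 and 12281 UMIs in the high and 7528, 15493 and 9903 in the low nuclei. Nfib-high nuclei made up 18.8%, 17.8% and 10.5% of the low nuclei and 2.18%, 2.62% and 1.44% of the high ones. Without them 41 genes were higher and 142 lower (0.294% and 1.02% of 13935), and of the first calls 39 higher and 134 lower genes passed again.

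None of the 5 other members tested passed, and of the pathway list Itpr1 was lower (-1.18, log2) and no gene was higher. Without the Nfib-high nuclei Itpr1 was at -0.27 (adjusted p = 0.112 by edgeR), and no pathway gene passed. Chrm3 averaged 238 ± 22.1 TMM CPM in the nuclei high in Chrm2 and 315 ± 100 in the low ones, with overlapping ranges (log2 -0.35 ± 0.11, adjusted p = 0.056 by edgeR). Without the Nfib-high nuclei the sign turned, to 0.35 with an adjusted p of 0.0080, still under 2-fold. Chrna7, at 52.3 ± 12.7 against 59.3 ± 3.36 TMM CPM, had a log2 difference of -0.15 (adjusted p = 0.488), and the adjusted p of Chrna4, Chrnb2 and Chrm1 were 0.583, 0.828 and 0.155. Chrm1 rested on 22 and 84 UMIs.

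The largest increase with Chrm2, among genes of at least 20 CPM in the higher group, was that of its antisense neighbour. 9330158H04Rik, a long non-coding RNA whose model overlaps the 5′ end of Chrm2 and includes the Chrm2 upstream sequence printed above, averaged 104 ± 19.4 TMM CPM in the nuclei high in Chrm2 and 10.2 ± 1.21 in the low ones (log2 3.28 ± 0.13, adjusted p = 1.3e-08 by edgeR). Without Nfib-high nuclei the difference was 3.0. It followed Chrm2 across types as well, at 5.12 ± 0.18 TMM CPM in cortical, 24.1 ± 13.3 in hypothalamic, 40.7 ± 4.21 in hindbrain and 48.4 ± 13.2 in red nucleus nuclei. Reads of the 2 genes in the shared 2108 bases cannot be told apart if counting ignored strand. Nucleus by nucleus, after thinning, it ranked first of 4981 genes in likeness to Chrm2, at a mean Pearson r of 0.177 over the 3 libraries, followed by Lrrtm4, Ndst4, Pcdh9 and Nkain2 at 0.168 to 0.153. These are weak correlations of sparse counts that share nucleus, library and depth, and are given as a description.

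Further genes higher with Chrm2 included Egfl6, a secreted matrix protein (22.7 ± 3.03 against 5.58 ± 0.85 TMM CPM), and Col8a1, a collagen chain (36.5 ± 5.94 against 10.3 ± 2.72). Ndst4, a heparan sulfate enzyme, averaged 263 ± 73.6 against 94.4 ± 27.6, and Abtb2 52.3 ± 16.8 against 20.5 ± 9.57. These 4 genes passed with and without the Nfib-high nuclei. Racgap1, Gm32828, Gm28494 and Gm13974 were also among the 10 largest increases, at 1.35 to 1.52 on the log2 scale. The 5 largest decreases were A4gnt, Txk, Igf2bp2, Creb5 and Gm29010, at -2.70 to -6.28. Without the Nfib-high nuclei 32.1% of the lower calls passed again. The 5 largest decreases were then Txk, Gm32004, D5Ertd615e, Slc44a4 and Col25a1, so only Txk of the first 5 was still among them. Over all hindbrain nuclei the level of Txk in the low group was 28.3 ± 41.8 TMM CPM, an SD above the mean. Txk did not pass with DESeq2.

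Marker genes of hindbrain subgroups were read from a list. Slc6a5, the glycine transporter of inhibitory neurons, was higher with Chrm2: 20.0, 1.52 and 15.0 TMM CPM in the high nuclei of libraries 1, 2 and 3 against 3.18, 0.837 and 2.31 in the low ones (log2 2.38 ± 0.34, adjusted p = 5.4e-04, edgeR). Its level in library 2 was low in both groups, and it rested on 97 and 33 UMIs. Col25a1, a membrane collagen, was lower in the high nuclei, at 26.5, 31.5 and 41.1 TMM CPM against 122, 82.3 and 124 (log2 -1.66 ± 0.12, adjusted p = 2.1e-06), with no overlap. Prdm6 was higher by 1.05 ± 0.15 (adjusted p = 6.1e-04), which was 0.91 without library 1 and 0.92 without Nfib-high nuclei, both under 2-fold. Zfhx3, Reln, Slc17a6, Nxph1, Glra1 and Pard3b were higher by 0.40 to 0.82 and did not reach 2-fold. Without Nfib-high nuclei these differences were smaller, 0.56 for Zfhx3, 0.28 for Reln, 0.23 for Glra1, 0.28 for Slc17a6, 0.27 for Pard3b and 0.11 for Nxph1. The adjusted p of the last 3 was then 0.0516, 0.169 and 0.685 by edgeR. The cortical markers Fezf2, Crym, Bcl11b and Slc17a7, and Nfib itself, were lower by -1.20 to -2.14, and none of these 5 passed once Nfib-high nuclei were left out.

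**Figure D5:**
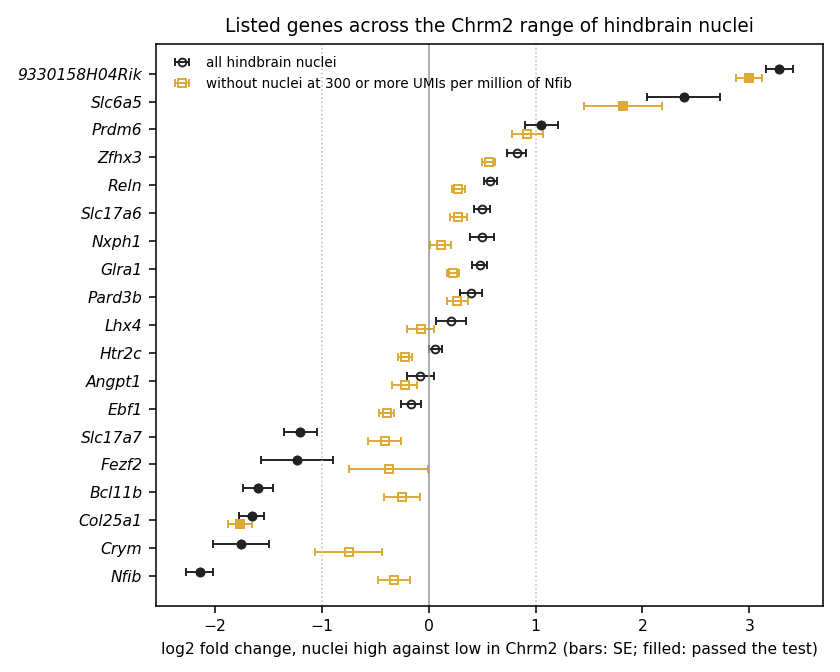
Log2 fold change (horizontal axis, bars are SE) between hindbrain nuclei high and low in Chrm2 for the listed genes (rows), over all hindbrain nuclei (circles) and without nuclei at 300 CPM or more of Nfib (squares), with filled symbols for genes that passed. 9330158H04Rik and Slc6a5 stay to the right and Col25a1 to the left in both, while the 4 cortical markers and Nfib move toward 0.

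Hindbrain nuclei gated as inhibitory or excitatory did not differ in Chrm2 beyond their spread, and most hindbrain nuclei fell in neither group. Slc6a5, which helps define the inhibitory group, was higher with Chrm2 in the split above. Inhibitory nuclei (25, 8 and 38 in libraries 1, 2 and 3, by Gad1, Gad2, Slc32a1 and Slc6a5) averaged 323 ± 121 TMM CPM of Chrm2 and excitatory nuclei (166, 242 and 393, by Slc17a6) 300.4 ± 64.6 (log2 0.07 ± 0.15, adjusted p = 0.933, edgeR). Chrm3 averaged 172 ± 111 and 210 ± 18.8 TMM CPM (adjusted p = 0.572). Of 10298 genes 0.631% passed as higher and 1.08% as lower in inhibitory nuclei, and none of the 3 members tested did. From the pathway list Kcnj3 was lower in inhibitory nuclei, by -1.20 on the log2 scale.

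The summed level of 39 Hox genes did not separate Chrm2 either. The sum does not tell which Hox genes were counted, so it is no measure of position along the axis. Nuclei at 100 CPM or more of Hox transcripts (74, 159 and 169) averaged 247 ± 26.6 TMM CPM of Chrm2 and nuclei under 50 CPM (625, 450 and 651) 226 ± 36.1 (log2 0.15 ± 0.07, adjusted p = 0.366, edgeR). Chrm3 was lower in Hox-high nuclei, at 196 ± 59.0 against 318 ± 40.3 TMM CPM (log2 -0.76 ± 0.10, adjusted p = 1.0e-04), with no overlap, which is under 2-fold and was -0.43 without Nfib-high nuclei. Those nuclei made up 1.26% to 8.11% of the Hox-high and 8.60% to 17.3% of the Hox-low group. Chrm1 was 1.33 ± 1.36 against 4.69 ± 1.84 TMM CPM, from 11 and 108 UMIs, and did not pass (adjusted p = 0.0566 by edgeR), though it did without library 1 (-1.47). Of 14376 genes 0.285% passed as higher and 1.18% as lower, and none of the 6 members tested did. Itpr1 was the 1 pathway gene that passed, lower in Hox-high nuclei by -1.38 on the log2 scale (adjusted p = 7.2e-08, edgeR), and it was -0.77 without Nfib-high nuclei, under 2-fold.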

How the data were processed

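Nuclear RNA of 3 libraries was counted per gene and droplet. The deposited files hold raw UMI counts, made by the authors with Cell Ranger on mm10, as version 7.0.1 per the submitters' processing notes and 6.1.1 per the file headers. Neither names intron use or strand.

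From these counts nuclei were filtered and typed as described, and UMIs were summed per type and library. Sums were tested with edgeR 4.0.16 in R 4.3.3 (TMM, filterByExpr, library as a block, quasi-likelihood), with 6 residual degrees of freedom for types and 2 for each hindbrain split. Same-numbered sums come from the same library, which sets the block. Genes that define a gate or split were not tested in it. Doublets called by Scrublet (0.560%, 2.13% and 1.45% of nuclei) were kept, and removed as an alternative. DESeq2 1.42.0 was another alternative. The scripts were tested on simulated data.

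Named genes were the members, per pathway role up to 4 called genes of largest change at 5 CPM or more, the 10 largest increases and 5 largest decreases with Chrm2 at 20 CPM or more, and listed subgroup genes. Some genes of these lists are not reported here, and list sums and counts leave out those of the marker, pathway and subgroup lists. Members and lists were chosen with earlier results of these data known. Intervals cover counting error only.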

Additional observations from a re-analysis of the deposited data

Results flagged for a closer look

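Receptor transcripts were also counted in droplets that no comparison between types used. The 1638 nuclei that passed no gate (24.9%, 16.6% and 14.2% of libraries 1, 2 and 3) held on average 682 plain CPM of Chrm3, 331 of Chrm2, 65.9 of Chrna7, 12.04 of Chrm1, 6.62 of Chrnb2, 4.18 of Chrna4 and 2.05 of Chrna3. The Chrm2 level, 302, 378 and 312 plain CPM in libraries 1, 2 and 3, came mostly from the 1105 Nfib-low nuclei among them, which held 453, 570 and 452 plain CPM, above each of the 4 types. The 533 Nfib-high nuclei held 65.0, 115 and 83.2. The difference was not tested.

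The 8490 barcodes outside the gene and mitochondrial limits, 8325 of them in library 2, held on average 366 plain CPM of Chrm3, 61.8 of Chrm2, 39.0 of Chrna7, 22.4 of Chrna4, 16.3 of Chrm1, 9.49 of Chrnb2 and 0.509 of Chrm4. These are means of 3 libraries, each weighted equally. By library Chrm3 was 287, 351 and 460, Chrna7 0, 48.0 and 69.0, and Chrm1 0, 37.5 and 11.5 plain CPM. Chrnb2 was 0, 17.0 and 11.5, Chrna4 28.7, 27.0 and 11.5, and Chrm4 had UMIs in library 2 only. The median depth of these barcodes was 1169, 679 and 580.5 UMIs. Libraries 1 and 3 held only 31 and 134 of them, with 34875 and 87018 UMIs of all genes. Low values of these libraries, and the means that include them, thus rest on very few UMIs.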

How the results depend on the processing

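Of 624 values of members under alternatives, 582 kept their direction and their side of the threshold. Without the replicate block 420 genes passed for red nucleus against hindbrain nuclei (667 with it), 120 for the Chrm2 split (482) and 50 for the Hox split (211), and no call of a member changed. DESeq2 called 230 and 94 genes in the Chrm2 and Hox splits, no filter on low counts 835 and 356 (and 266 in place of 176 for transmitter type), and leaving out Nfib-high nuclei 183 and 121. Taking the top 10% in place of the top 25% gave 319. Leaving out 1 library gave 139 to 362 in the Hox split. Thinning, which removes UMIs, lowered 12 shares: Chrm2 to 9.02%, 31.5%, 26.8% and 39.1% in cortical, red nucleus, hypothalamic and hindbrain nuclei, Chrm3 to 88.5%, 19.8%, 24.8% and 32.0%, and Chrna7 to 23.2%, 14.7%, 8.81% and 13.3%. For the changes in the number of genes called, the cause was not tested.

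Signs turned, none of them of a called value. With gates doubled, Chrm1 was 0.41 for red nucleus against hypothalamic and -0.32 for hypothalamic against hindbrain nuclei, and red nucleus against hindbrain nuclei gave -0.44 for Chrm2 and -0.11 for 9330158H04Rik. Without TMM factors, Chrm1 was -0.032 for red nucleus against hindbrain, Chrm3 -0.13 for red nucleus against hypothalamic and Chrnb2 -0.20 for cortical against hypothalamic nuclei. Chrm3 in red nucleus against hypothalamic nuclei was -0.0059 with DESeq2 and -0.0127 without nuclei at odds on Nfib. Without Nfib-high nuclei the Chrm2 split gave 0.35 for Chrm3, -0.22 for Htr2c and -0.0758 for Lhx4, and the top 10% -0.32 for Htr2c. Leaving out each library in turn, red nucleus against hindbrain nuclei ranged from -0.361 to 0.287 for Chrm1, -0.0266 to 0.235 for Chrm2, -1.45 to 0.675 for Chrna3 and -0.0727 to 0.539 for Chrna4. Red nucleus against hypothalamic nuclei ranged from -0.563 to 0.532 for Chrm3, and cortical against red nucleus nuclei from -0.414 to 1.96 for Chrna3. Cortical against hindbrain nuclei ranged from -0.202 to 0.0559 for Chrna4 and -0.216 to 0.0282 for Chrnb2. The Chrm2 split ranged from -0.0350 to 0.385 for Chrnb2, -0.00499 to 0.0839 for Htr2c and -0.167 to 0.0626 for Angpt1, the Hox split from -0.465 to 0.0194 for Chrnb2, and transmitter type from -0.0890 to 0.187 for Chrm2.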
